A study of Mus musculus with 2 samples.

Results

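The 4 Hox clusters were described in the DNA methylation map of the early mouse epiblast. The members were 38 Hox genes, taken from a list of symbols and not from their methylation, of 49993 genes with a position in the gene table and 20661 protein-coding genes on the autosomes. They comprised 10 genes of the Hoxa cluster on chromosome 6, 10 of Hoxb on chromosome 11, 9 of Hoxc on chromosome 15 and 9 of Hoxd on chromosome 2. Each gene was followed at its promoter and along its body, and each cluster was followed window by window together with 50 kb on either side.

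The material was the epiblast of wild-type female (XX) C57Bl6/J embryos at embryonic day 6.5, from natural matings and without culture in vitro. Epiblasts were separated by hand from the extra-embryonic tissue, whose DNA was used to type the sex, and no treated or mutant group was part of the series. In whole-genome bisulfite sequencing an unmethylated cytosine appears as thymine, and a methylated one still appears as cytosine. The labels list 2 samples, but the read counts came as 1 table with no column per sample, which was taken to hold both. No value below therefore has a replicate error, no difference could be tested, and how the samples varied was not analysed here. RNA was not measured, so the identity of the dissected tissue was not checked against marker genes.

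Hox genes encode homeodomain transcription factors that give cells along the head-to-tail axis their regional identity. They lie in clusters in which the order of the genes follows the order of their activation in time and of their expression along the axis, with low paralog numbers anterior and early and high ones posterior and late. At the start of gastrulation most Hox genes are silent, and Polycomb proteins cover the clusters with trimethylated histone H3 lysine 27. Most CpGs of the genome gain DNA methylation as the epiblast forms, whereas CpG islands in general stay free of it.

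A methylation level is the methylated share of all read counts in a region, with both strands of a CpG added. Levels are followed by their exact Clopper-Pearson 95% interval in parentheses. These intervals cover counting error only and treat all counts as independent. A read over several CpGs enters at each of them and molecules were not tagged, so the intervals can be too narrow. A region was called low if its whole interval was under 20%, high if all of it was over 60%, intermediate if it fell between those limits, and unresolved if it crossed one of them. A region counted as measured with at least 5 CpGs with reads and 20 read counts. Coordinates are those of mm10, counted from 1. The autosomes were at 66.3% in 133245671 read counts. Coverage was deeper in the clusters, at 9.95 read counts per CpG compared with 6.54 on the autosomes, and 98.6% of the 11795 cluster CpGs had a read compared with 89.9%.

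The promoters of 5 Hox genes show the range of sequence behind the levels that follow. Each line gives the 250 bases before the tabulated start on the coding strand, 5′ to 3′, from RefSeq (GRCm38.p6), and the capitals mark every CpG. Hoxa13 was chosen as the least methylated promoter and Hoxd4 as the most methylated one. Hoxd13 is the paralog of Hoxa13 in another cluster, and Hoxb4 and Hoxc4 are the paralogs of Hoxd4 with a tabulated start.
Hoxa13 (chr6:52260881-52261130, minus strand): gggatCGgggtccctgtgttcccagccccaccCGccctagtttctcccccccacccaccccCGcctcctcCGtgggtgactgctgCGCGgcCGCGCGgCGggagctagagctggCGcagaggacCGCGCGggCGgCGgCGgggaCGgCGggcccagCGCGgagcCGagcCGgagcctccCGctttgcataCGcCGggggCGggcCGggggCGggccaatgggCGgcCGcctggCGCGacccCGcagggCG
Hoxd13 (chr2:74667975-74668224, plus strand): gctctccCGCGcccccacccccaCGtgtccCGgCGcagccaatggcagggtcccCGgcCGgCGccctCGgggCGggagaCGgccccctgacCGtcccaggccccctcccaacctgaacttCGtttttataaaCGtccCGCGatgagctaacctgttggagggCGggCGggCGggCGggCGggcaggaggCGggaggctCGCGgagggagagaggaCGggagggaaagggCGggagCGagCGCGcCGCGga
Hoxb4 (chr11:96318017-96318266, plus strand): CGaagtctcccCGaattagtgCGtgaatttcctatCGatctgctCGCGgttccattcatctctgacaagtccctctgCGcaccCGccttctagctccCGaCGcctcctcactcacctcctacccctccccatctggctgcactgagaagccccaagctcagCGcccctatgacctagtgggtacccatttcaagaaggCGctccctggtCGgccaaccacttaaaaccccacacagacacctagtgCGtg
Hoxc4 (chr15:103034145-103034394, plus strand): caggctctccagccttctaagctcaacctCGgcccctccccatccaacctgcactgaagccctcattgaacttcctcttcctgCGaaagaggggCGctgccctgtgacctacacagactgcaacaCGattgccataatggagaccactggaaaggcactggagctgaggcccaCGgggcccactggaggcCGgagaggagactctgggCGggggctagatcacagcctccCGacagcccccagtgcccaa
Hoxd4 (chr2:74721728-74721977, plus strand): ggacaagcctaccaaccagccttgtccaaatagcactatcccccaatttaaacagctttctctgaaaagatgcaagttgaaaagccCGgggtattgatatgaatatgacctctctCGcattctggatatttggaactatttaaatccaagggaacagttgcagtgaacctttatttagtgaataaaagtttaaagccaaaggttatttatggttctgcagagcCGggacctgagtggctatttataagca

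The group 13 sequences are thick with CpGs, and the group 4 sequences are thinner. The Hoxa13 sequence holds 35 CpGs, and 5 of its 298 read counts were methylated, a level of 1.68% (0.547% to 3.87%). In it, 31 of the 35 CpGs had no methylated count. The Hoxd13 sequence holds 31 CpGs and was at 8.24% (4.69% to 13.2%), with 15 of 182 read counts methylated. Runs of CpGs in close succession are visible in both.

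Hoxb4 has 14 CpGs in its sequence, each with at least 1 methylated count, and was at 21.5% (15.1% to 29.1%; 31 of 144). Hoxc4 has 8 CpGs and was at 14.4% (8.47% to 22.4%; 16 of 111). Hoxd4 has 3 CpGs, and 10 of 14 read counts were methylated, which leaves a wide interval of 41.9% to 91.6%. The number of CpGs in a sequence can be set beside that of all 32851 promoter sequences of the same length in the RefSeq table. At least as many CpGs as in Hoxa13 were found in 2.97% of them, as in Hoxd13 in 5.19%, as in Hoxb4 in 29.4%, as in Hoxc4 in 43.0% and as in Hoxd4 in 71.0%.

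Hox promoters were weakly methylated as a group. A promoter was the window reaching 500 bp to either side of the start. A RefSeq start was tabulated for 22 members, and for the other 16 the gene end with more CpGs was used. The 38 promoters had a median level of 8.29% (interquartile range 5.62% to 11.2%), from 2.61% at Hoxa13 to 38.5% at Hoxd4. By their intervals 34 of 38 were low, 1 was intermediate, 3 were unresolved and 0 were high. Autosomal promoters and bodies used for comparison were those of protein-coding genes. Among 18355 measured autosomal promoters 64.6% were low, with a median of 8.31%, so the typical Hox promoter lay at the level of the typical autosomal promoter.

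The comparison by CpG number separates the promoters that are usually unmethylated from the others. All 27 CpG-rich Hox promoters, which hold at least 40 CpGs in the window, were low, beside 97.2% of 11052 autosomal CpG-rich promoters. Their median of 6.48% was above the autosomal 5.40%. Of 9 Hox promoters of intermediate CpG number, from 20 to 39, 7 were low, beside 38.5% of 2756 autosomal ones. Here the Hox median was 12.7%, below the autosomal 20.8%. Neither of the 2 CpG-poor Hox promoters was low, and 0.99% of 4547 such autosomal promoters were. Across the 38 promoters level and CpG number had a Spearman correlation of -0.76, given as a description, since neighboring promoters share 1 table and 1 chromosome.

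In the Hoxa cluster 9 of 10 promoters were low, with a median of 7.13%. The lowest belonged to Hoxa13, which patterns the digits and the urogenital tract, with 32 of 1226 read counts methylated in 126 CpGs, or 2.61% (1.79% to 3.66%; chr6:52260380-52261380). Hoxa4, a gene of the cervical region, was next at 4.87% (3.72% to 6.25%; 58 of 1192; chr6:52191203-52192203). The highest was Hoxa7, a gene of the trunk, at 18.5% (13.99% to 23.8%; 48 of 259; chr6:52218073-52219073). Its window holds 22 CpGs, its interval crosses 20%, and it is the unresolved member of the cluster. Hoxa9, which acts in blood progenitors and the trunk, followed at 9.44% (5.60% to 14.7%; 17 of 180; chr6:52226870-52227870). The other Hoxa promoters, among them Hoxa2 of the second pharyngeal arch, Hoxa5 of the lung and Hoxa11 of the forearm and kidney, lay from 5.50% to 8.95%.

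The Hoxb promoters had the highest median, 11.9%, and 8 of 10 were low. Hoxb9, a gene of the thoracic region, was lowest at 4.52% (3.32% to 6.01%; 45 of 995; chr11:96270830-96271830). Hoxb5, which acts in the enteric nervous system, was at 6.08% (4.40% to 8.16%; 41 of 674; chr11:96303012-96304012). The highest 2 were Hoxb1, which specifies a segment of the hindbrain, at 15.2% (11.6% to 19.5%; 52 of 341; chr11:96365258-96366258) and Hoxb4, known from blood stem cells, at 15.2% (11.5% to 19.5%; 50 of 329; chr11:96317767-96318767). Hoxb3, an anterior gene, was unresolved at 15.1% (9.69% to 21.9%; 22 of 146; chr11:96306601-96307601), and so was Hoxb6, a gene of the trunk, at 15.1% (10.6% to 20.6%; 32 of 212; chr11:96301069-96302069). These 4 promoters cannot be ranked, since their intervals overlap almost in full. Hoxb promoters had a median of 37 CpGs, compared with 53 in Hoxa, 49 in Hoxc and 63 in Hoxd.

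In the Hoxc cluster each of the 9 promoters was low, with a median of 7.41%. Hoxc5, a gene of the neck and upper trunk, was at 4.96% (3.32% to 7.08%; 28 of 565; chr15:103013508-103014508), and Hoxc13, a regulator of hair keratins, at 5.04% (3.74% to 6.62%; 48 of 953; chr15:102920631-102921631). Hoxc6, a gene of the upper trunk, was highest at 14.9% (11.6% to 18.8%; 59 of 395; chr15:103011382-103012382). Hoxc8, which acts in motor neurons of the lower neck, was at 11.1% (9.08% to 13.5%; 93 of 835; chr15:102990039-102991039). No start is tabulated for Hoxc6, and the end used lies opposite to the direction of its neighbors. At its other end the level was 7.53% (4.52% to 11.6%). The strands of the Hoxc6 window also differed, with 6.67% of 225 plus strand counts and 25.9% of 170 minus strand counts methylated. On the plus strand alone Hoxc6 lay below Hoxc8 at 11.8% and Hoxc9 at 12.4%.

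The Hoxd cluster had the lowest median of the 4, 6.37% over its 9 members with 8 low, and also the most methylated Hox promoter. Hoxd3, which shapes the first neck vertebrae, was at 3.82% (2.57% to 5.44%; 29 of 759; chr2:74711493-74712493), and Hoxd9, a gene of the lower trunk and limb, at 4.80% (3.51% to 6.39%; 44 of 917; chr2:74697263-74698263). Hoxd11, a gene of the forearm, was second highest at 14.4% (11.2% to 18.2%; 60 of 416; chr2:74679058-74680058). Hoxd4, a gene of the neck vertebrae, stood apart at 38.5% (27.7% to 50.2%; 30 of 78; chr2:74721478-74722478). Its interval does not overlap that of any other Hox promoter. The Hoxd4 window holds 13 CpGs and lies inside the span of Hoxd3, and autosomal promoters with under 20 CpGs had a median of 72.4%.

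Further starts are tabulated for 2 members. The second start of Hoxa10, a gene of the lumbar region and uterus, was at 5.08% (3.66% to 6.86%), beside 5.996% at the first. That of Hoxd11 was at 3.10% (2.26% to 4.14%; 44 of 1420; chr2:74681823-74682823) in a window of 114 CpGs. The Hoxd11 window at the first start, with 44 CpGs, was higher at 14.4%, and the intervals do not overlap.

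Paralogs, the counterparts of a gene in the other clusters, were compared next. The 4 genes of group 13, the most posterior, had the lowest group median, 4.98%, with Hoxa13 at 2.61%, Hoxd13 at 4.91%, Hoxc13 at 5.04% and Hoxb13, a gene of the tail bud and prostate, at 8.82%. The interval of Hoxa13 lay below those of the other 3, but on minus strand counts alone Hoxa13 was at 3.73% and Hoxd13 at 3.45%. Group 4 had the widest spread, from 4.87% at Hoxa4 through 6.97% at Hoxc4 and 15.2% at Hoxb4 to 38.5% at Hoxd4. Group 5 had a narrow spread, from 4.96% at Hoxc5 to 7.79% at Hoxa5. Group 6 had the highest median, 14.9%, with Hoxa6 at 8.79% apart from Hoxc6 at 14.9%. This rank depends on the gene ends used for Hoxb6 and Hoxc6, which lie opposite to the direction of their clusters. At the ends by that direction Hoxb6 was at 9.23% and Hoxc6 at 7.53%. All group 6 promoters would then lie below the median of group 7, 12.95%, and Hoxc6 below Hoxa6.

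Position along the cluster went with a small difference. The 11 anterior genes of groups 1 to 4 had a median of 8.95%, the 11 central genes of groups 5 to 8 had 8.79%, and the 16 posterior genes of groups 9 to 13 had 7.22%. Of the posterior promoters 16 of 16 were low, of the anterior ones 9 of 11 and of the central ones 9 of 11. CpG number rose along the same order, with medians of 36, 46 and 56 CpGs, and its part in the difference was not tested. Level and paralog number had a Spearman correlation of -0.21 over 38 promoters.

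**Figure D1:**
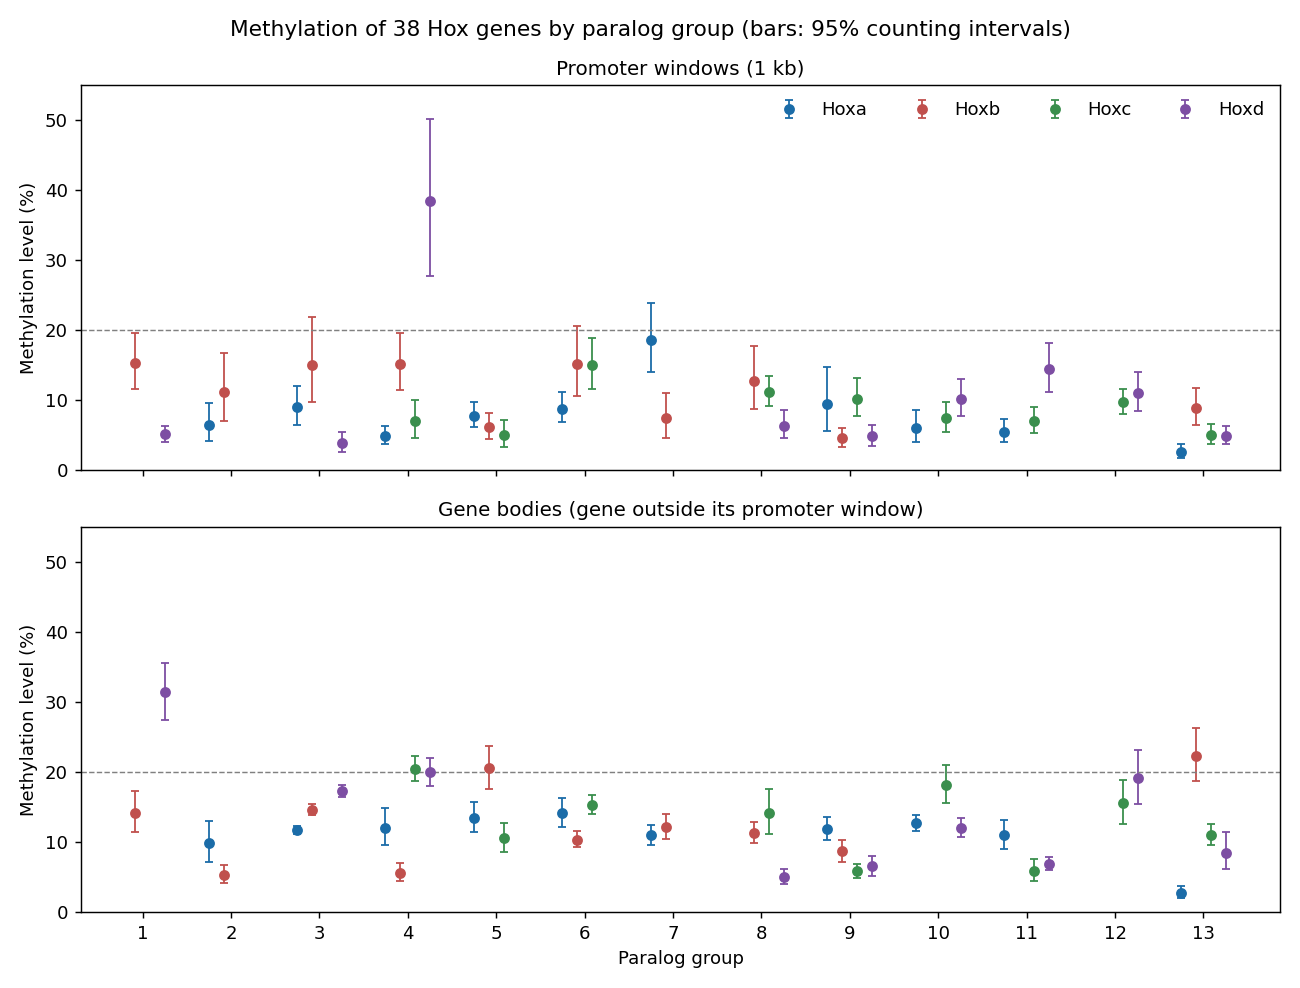
Methylation level in percent (vertical axis) of 38 Hox genes by paralog group (horizontal axis), for promoter windows in the upper panel and gene bodies in the lower one. Points are colored by cluster, bars are 95% counting intervals and the dashed line marks 20%. Hoxd4 at 38.5% stands above the other promoters, and Hoxd1 at 31.4% above the other bodies.

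Hox genes differed in level from other genes more along their bodies than at their promoters. The body was the gene outside its promoter window. For Hoxb8, Hoxc4 and Hoxd10 the tabulated start lies inside the gene span, so their bodies include sequence upstream of it. Most of the Hoxc4 body is such upstream sequence. Hox bodies had a median of 11.99% and a range of 2.78% to 31.4%, whereas 18954 autosomal bodies had a median of 73.1%. By their intervals 31 of 38 Hox bodies were low, 1 was intermediate and 6 were unresolved, beside 3.18% of autosomal bodies called low. The highest Hox body, 31.4%, lay below the lower quartile of autosomal bodies, 63.4%. Hox genes overlap one another in places, so the bodies of Hoxa3, Hoxb3 and Hoxd3 include neighbors and are not separate measurements from theirs. The spans of Hoxd10 and Hoxd11 also overlap, so their bodies share CpGs.

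The lowest bodies were those of Hoxa13 at 2.78% (1.98% to 3.80%; 38 of 1365; gene at chr6:52258853-52260880) and Hoxd8, a gene of the trunk, at 5.07% (4.08% to 6.20%; 88 of 1737; chr2:74704615-74707933). The highest were Hoxd1, which acts in pain-sensing neurons, at 31.4% (27.4% to 35.6%; 162 of 516; chr2:74762980-74765142) and Hoxb13 at 22.4% (18.8% to 26.3%; 109 of 487; chr11:96194316-96196610). Both of the latter are outermost genes of their clusters, but so is Hoxa13, which had the lowest body. The bodies of the other outermost genes ranged from 2.78% at Hoxa13 to 20.5% at Hoxc4, so an outer position did not go with a high body throughout. The Hoxd1 promoter was at 5.10%, and the far end of the gene was at 65.5% (56.0% to 74.2%), so the level rose from one end of the gene to the other.

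The other unresolved bodies had intervals that cross 20%. They were Hoxb5 at 20.5% (17.5% to 23.8%; chr11:96303512-96306121), Hoxc4 at 20.5% (18.8% to 22.3%; chr15:103018097-103036856) and Hoxd4 at 19.98% (18.1% to 22.0%; chr2:74721978-74729160). Hoxd12, a gene of the digits, was at 19.1% (15.5% to 23.2%; chr2:74675013-74677705), and Hoxc10, a gene of the lumbar region, at 18.2% (15.5% to 21.0%; chr15:102966796-102971898). The level of the body was above that of the promoter in 26 of 38 genes, with intervals apart in 16. It was below, with intervals apart, in Hoxa7, Hoxb2, Hoxb4, Hoxc9, Hoxd4 and Hoxd11. Promoter and body levels had a Spearman correlation of 0.12 over the 38 genes.

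The distance over which starts stay low was followed in steps of 500 bp around the 22 tabulated Hox starts. At 0 to 499 bp downstream the Hox level was 5.96% (5.47% to 6.47%), beside 4.92% at 9033 other autosomal genes with CpG-rich promoters. Those other genes rose to 51.1% at 1500 to 1999 bp and to 67.3% at 9500 to 9999 bp. The Hox genes were at 13.6% (12.4% to 14.97%) and 18.0% (16.3% to 19.9%) in the same steps. Upstream the other genes reached 60.2% at 10 kb, and the Hox genes were at 9.09% (8.14% to 10.1%). Neighboring Hox genes are counted in each other's steps. In that upstream step CpGs were denser at the Hox genes, at 25.8 per kb beside 11.6 per kb. At 0 to 499 bp they were less dense, at 67.7 per kb beside 88.4 per kb. The Hox starts, unlike those of the other genes, were not limited to CpG-rich promoters.

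**Figure D2:**
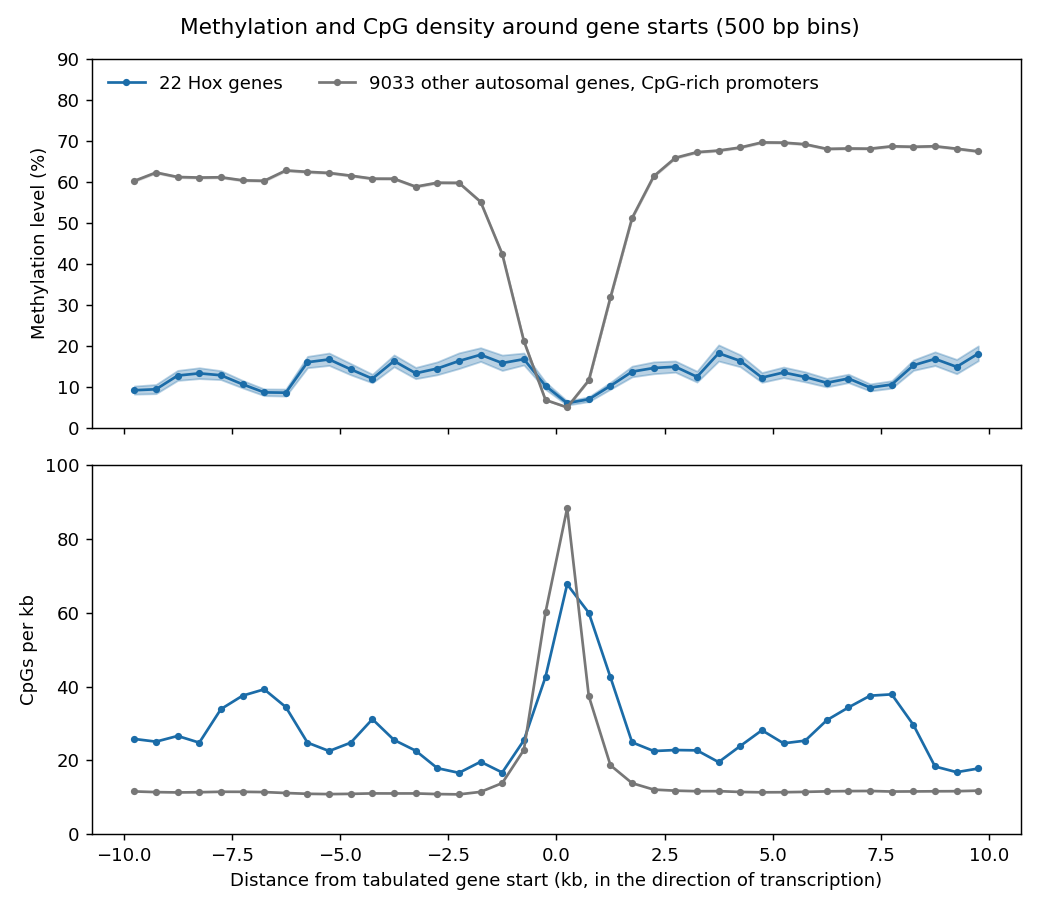
Methylation level in percent (upper panel) and CpGs per kb (lower panel) in 500 bp steps by distance from the tabulated start in kb, for 22 Hox genes (blue, shaded 95% counting interval) and 9033 other autosomal genes with CpG-rich promoters (grey). Both groups are near 5% at the start, and the Hox line stays under 20% out to 10 kb.

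The clusters were then measured as wholes, from the outer end of the first to that of the last listed gene. The Hoxa cluster was at 11.5% (11.2% to 11.9%; chr6:52162417-52260880), Hoxc at 12.8% (12.4% to 13.2%; chr15:102921131-103036856) and Hoxd at 11.9% (11.5% to 12.3%; chr2:74668225-74765142). Hoxb was higher at 20.2% (19.8% to 20.7%; chr11:96194316-96368254). Its 2 parts differed, as the stretch from Hoxb9 to Hoxb1 was at 12.9% (12.5% to 13.4%) and the 74.7 kb between Hoxb13 and Hoxb9 at 38.1% (37.1% to 39.1%). The first of these values is close to those of the other 3 clusters.

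The 50 kb on both sides were higher than each cluster, at 36.3% for Hoxa, 49.6% for Hoxb, 38.1% for Hoxc and 35.5% for Hoxd. The cluster minus its flanks was -24.8 percentage points for Hoxa, -29.4 for Hoxb, -25.4 for Hoxc and -23.6 for Hoxd. The counting intervals of cluster and flanks did not overlap in any of the 4, and these differences have no replicate error. The Hoxa span was taken from Hoxa2, so sequence of that cluster beyond Hoxa2 is counted in its flank. The flank beyond Hoxd13 also holds the promoter window of Evx2.

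Within the 4 clusters together the level was 7.53% in promoter windows, 12.6% in the rest of the genes and 22.8% between genes. Hoxb was the highest between genes, at 35.7%. The others were at 14.9% in Hoxa, 15.5% in Hoxc and 16.0% in Hoxd. Of 28 intervals between neighboring genes 16 were low, 2 intermediate, 9 unresolved and 0 high, with a median of 14.99%. The 2 intermediate ones were both in Hoxb, from Hoxb13 to Hoxb9 and from Hoxb2 to Hoxb1, the latter at 27.9% (24.6% to 31.5%) over 11.7 kb. The remaining interval, from Hoxc5 to Hoxc4, holds 2 CpGs and was not measured.

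The distance from each cluster to the nearest window of 1 kb called high was measured outward. Beyond Hoxd1 it lay 1.86 kb away, at 80.4% (67.6% to 89.8%), and beyond Hoxc4 7.15 kb away. The other 6 sides had no high window for longer, with 12.7 kb beyond Hoxb1, 17.1 kb beyond Hoxa13, 18.1 kb beyond Hoxc13, 22.4 kb beyond Hoxa2, 26.3 kb beyond Hoxb13 and 28.2 kb beyond Hoxd13. A high call needs depth, so these distances can reach past the edge of the low stretch. By the first measured window with a level over 60%, whatever its interval, a reading added after the data were seen, the distance was 21.2 kb beyond Hoxd13, 18.4 kb beyond Hoxa2 and 0.859 kb beyond Hoxd1, and it was the same on the other 5 sides. Intermediate and unresolved windows near 50% lie closer still on some sides. The sides of Hoxd were the most unequal pair, with the flank beyond Hoxd13 at 23.4% (22.4% to 24.4%) and the flank beyond Hoxd1 at 69.1% (67.2% to 71.0%). A run of 8 windows under 20% lay beyond Hoxd13, at 9.07% (8.17% to 10.03%; chr2:74654001-74662000).

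**Figure D3:**
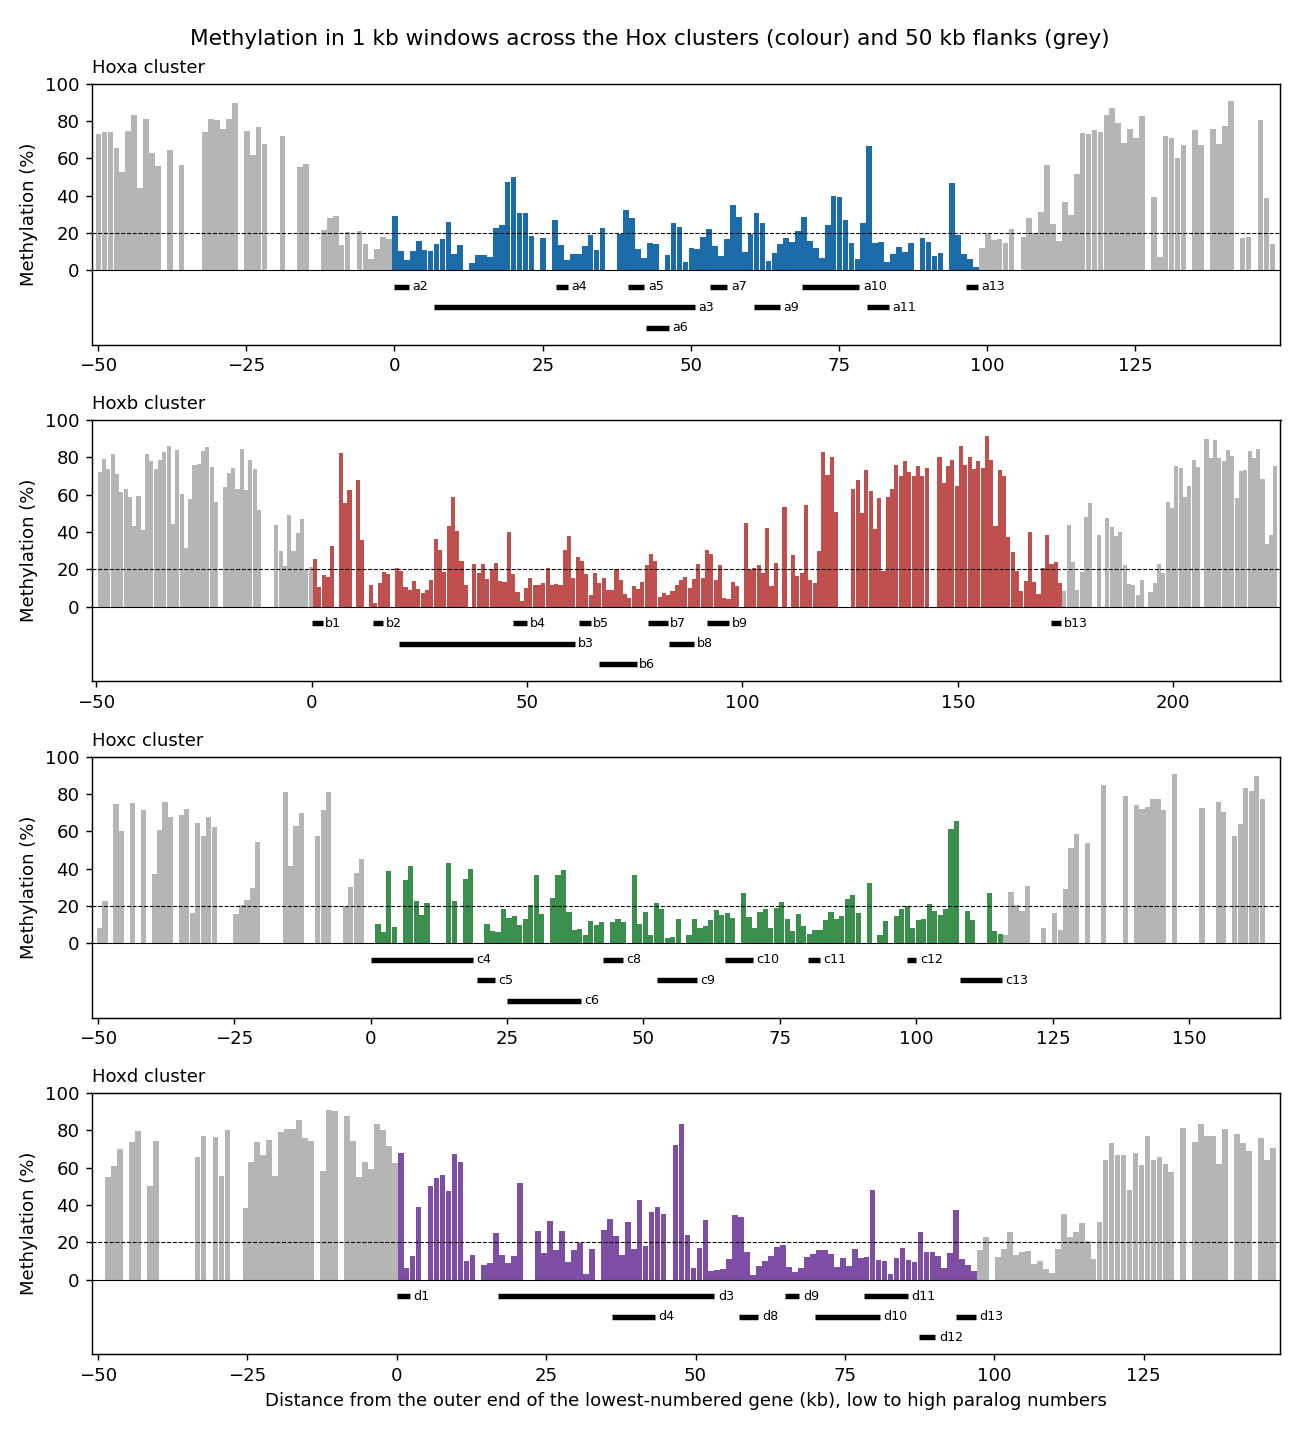
Methylation level in percent (vertical axis) in windows of 1 kb along each cluster (colored bars) and its flanks of 50 kb (grey bars), with distance in kb from the outer end of the lowest-numbered gene. Black bars mark the genes, the dashed line marks 20%, and gaps are windows at 0% or not measured. The colored bars are mostly near or under 20%. The widest exception is the tall block between Hoxb9 and Hoxb13, and a shorter block lies between Hoxd3 and Hoxd1.

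Windows of 1 kb gave the finest view of the clusters. Of 486 windows 440 were measured, and 179 of these, or 40.7%, were low, beside 1.71% of 1410818 autosomal windows. High windows numbered 22 inside the clusters, whereas 61.2% of autosomal windows were high. The median window was at 16.1%, and on the autosomes at 77.3%. By cluster 43 of 91 windows were low in Hoxa, 52 of 161 in Hoxb, 44 of 97 in Hoxc and 40 of 91 in Hoxd.

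The clusters differed from the autosomes most in windows with under 40 CpGs. With 40 or more CpGs 95.7% of 94 Hox windows were low and 78.8% of autosomal ones, with medians of 8.59% and 7.35%. With 20 to 39 CpGs 51.1% of 135 Hox windows were low and 6.37% of autosomal ones, with medians of 14.7% and 77.9%. With 10 to 19 CpGs the shares were 13.3% of 113 and 0.182%, with medians of 25% and 78.9%. With 5 to 9 CpGs they were 5.10% of 98 and 0.0161%, with medians of 35.0% and 76.1%. Windows with few CpGs have few read counts, with medians of 50.5 inside the clusters and 41 on the autosomes in the last class, and low calls are hard to reach there.

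Inside the clusters the level still fell with CpG number, with a Spearman correlation of -0.66 over 440 windows, which share chromosomes and neighbors. In the flanks the medians were 69.1%, 66.0%, 16.8% and 9.17% from the fewest to the most CpGs. Examples of low windows with few CpGs were 1 of 6 CpGs in Hoxc between Hoxc9 and Hoxc8, with 2 of 48 read counts methylated (4.17%, 0.509% to 14.3%; chr15:102985001-102986000). Another, of 8 CpGs inside Hoxa3, had 4 of 58 (6.90%, 1.91% to 16.7%; chr6:52178001-52179000). Both were chosen after their values were seen.

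**Figure D4:**
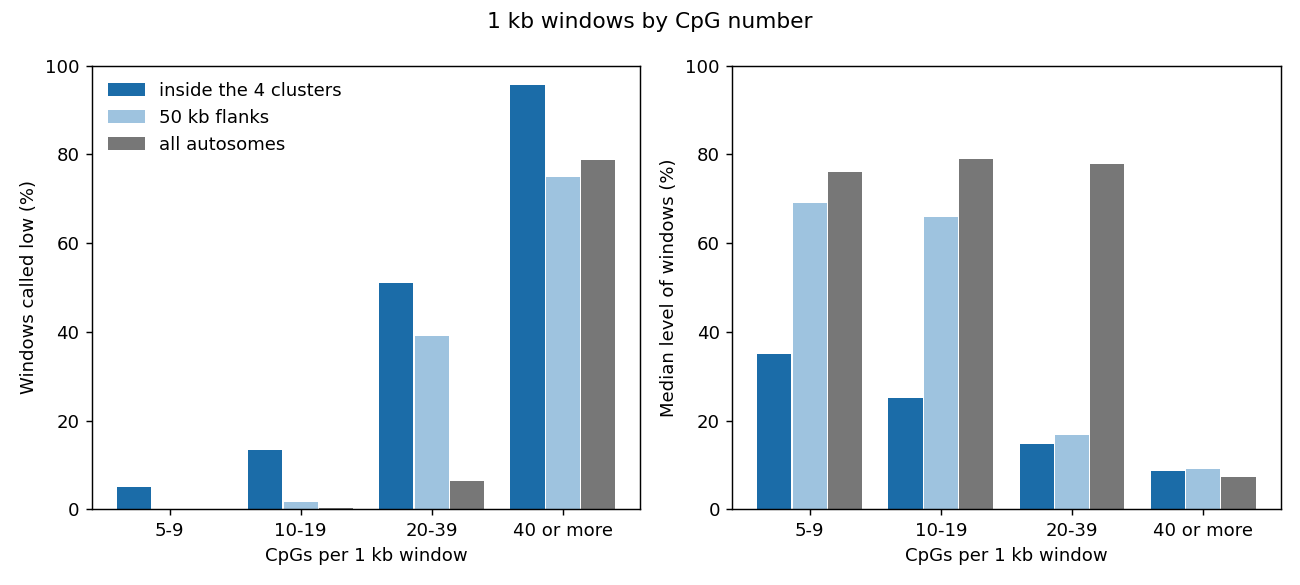
Windows of 1 kb by number of CpGs (horizontal axis), with the share called low in percent on the left and the median level in percent on the right, inside the 4 clusters (dark blue), in the flanks (light blue) and on all autosomes (grey). With 20 to 39 CpGs the medians are 14.7% inside the clusters and 77.9% on the autosomes.

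The high windows inside the clusters were few and mostly in 1 place. Of the 22, 19 lay between Hoxb13 and Hoxb9, where 66 windows were measured with a median of 56.4%, and 9 of those 66 were low. The highest window of any cluster was there, at 91.4%, with 64 of 70 read counts methylated (chr11:96211001-96212000). One more lay between Hoxb2 and Hoxb1, at 82.6% (68.6% to 92.2%; chr11:96361001-96362000). The last 2 were in Hoxd. One, at 83.3% (65.3% to 94.4%; 25 of 30; chr2:74717001-74718000), lay inside Hoxd3 upstream of Hoxd4, and the other, at 67.8% (60.3% to 74.7%; chr2:74764001-74765000), lay near the far end of Hoxd1. Between Hoxd3 and Hoxd1 consecutive windows were raised but unresolved, from 47.4% to 67.6% (chr2:74754001-74760000). The interval between those genes was low as a whole, at 16.8%. Hoxa and Hoxc had 0 high windows. Their highest were at 66.7% in Hoxa11, where 14 of 21 read counts were methylated, and at 65.3% between Hoxc13 and Hoxc12, and both intervals began under 60%.

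The length of the low stretches was compared with the rest of the autosomes. Consecutive measured windows with a level under 20%, whatever their interval, formed 17418 runs, of which 8544 were 1 window long. The longest of all was in Hoxd, 21 windows over Hoxd8, Hoxd9, Hoxd10 and part of Hoxd11, at 8.13% (7.53% to 8.75%; chr2:74686001-74707000). The longest run outside the clusters and their flanks had 17 windows. Of the 80 runs of at least 8 windows 10 were in the clusters or flanks. The longest in Hoxc had 11 windows, around Hoxc11, and the longest in Hoxa and in Hoxb had 9 each, at Hoxa13 and at Hoxb7 and Hoxb8. The run at Hoxa13 continues past the gene into the flank (chr6:52257001-52266000).

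Windows of 10 kb, a size chosen after the data were seen, bridge the single higher windows that end such runs. Of 50 windows inside the clusters 40 (80%) were under 20%, beside 1.29% of 229659 on the autosomes. Joined into runs, the autosomal windows under 20% gave 2766 runs, and each of the 4 longest overlapped a different Hox cluster. They spanned 90 kb at Hoxc at 11.7%, 80 kb at Hoxa at 11.6%, 80 kb at Hoxb at 13.3% and 70 kb at Hoxd at 9.70%. The Hoxb run lay inside its cluster. The other runs also covered part of the flank beyond Hoxc13, Hoxa13 and Hoxd13. The longest runs elsewhere on the autosomes were 40 kb, and there were 3 of them.

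Single CpGs with at least 5 read counts were read last. Inside the clusters 71.1% of 9784 were under 20% and 3.92% over 60%, whereas on the autosomes 11.4% were under 20% and 69.3% over 60%. The share under 20% was 75.4% in Hoxa, 73.6% in Hoxc and 76.2% in Hoxd, and 61.5% in Hoxb. CpGs over 60% made up 10.2% in Hoxb and 0.514% in Hoxa.

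Genes in or next to the clusters, a list of mixed gene types, were together called low about as often as autosomal protein-coding promoters. The 7 unresolved ones were all noncoding RNAs or microRNAs, and each measured protein-coding neighbor except Ttll6 was low. Of 24 listed noncoding RNAs, microRNAs and neighbors 23 were matched and measured, and 15 were low, 1 intermediate and 7 unresolved, with a median of 11.1%, beside the 64.6% called low among autosomal promoters. Of the noncoding RNAs, Hoxb3os was at 3.38%, Hoxa11os, antisense to Hoxa11, at 5.23%, Haglr at 5.24%, Hotairm1 at 5.82% and Hoxb5os at 11.1%. Hottip, a transcript from beyond Hoxa13, was at 15.3% (11.1% to 20.4%), Hotair, a transcript from the Hoxc cluster, at 18.3% (11.7% to 26.5%) and Hoxd3os1 at 19.6% (15.2% to 24.7%), and these 3 were unresolved. Several of these windows overlap those of Hox genes, as for Haglr and Hoxd1, so they repeat the same CpGs.

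The microRNA loci are short, and their windows need not hold the start of the primary transcript. Mir615 was at 9.30% and Mir10a at 11.6%, both low. Mir196a-2 (14.8%), Mir196b (17.8%), Mir10b (22.4%) and Mir196a-1 (23.2%) were unresolved. Among the protein-coding neighbors Mtx2 was at 2.34%, Hibadh at 4.46%, Lnpk at 5.56%, Evx1, a homeobox gene, at 6.07%, Skap2 at 7.81%, Smug1, a DNA repair gene, at 10.8%, Skap1 at 15.3% and Evx2, a homeobox gene, at 16.5%, and each was low. Ttll6 was intermediate at 30.6% (24.2% to 37.6%).

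Other genes of the Hox pathway, from 3 lists, were low at their promoters, beside the same 64.6% of autosomal promoters. The ParaHox genes, relatives of the Hox genes, together with genes that act upstream of them had 8 of 8 promoters low, at a median of 7.66%, from 1.56% at Gbx2, a regulator of the hindbrain border, to 14.3% at Cdx1, which activates Hox genes in the tail end of the embryo. Cofactors that bind DNA with Hox proteins had 9 of 9 low, at a median of 8.78%, from 2.22% at Pbx3 to 13.1% at Pknox2. Chromatin regulators of Hox genes, the Polycomb and Trithorax proteins and histone demethylases, had 20 of 20 low, at a median of 3.24%, from 1.96% at Cbx2, a Polycomb protein that binds methylated histone H3, to 12.7% at Kdm6b, which removes that mark.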

How the data were processed

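Whole-genome bisulfite sequencing of 2 wild-type female epiblast samples was deposited by the authors as 1 table of read counts, methylated and unmethylated, per strand of each CpG, with no column per sample. It was assumed to hold both samples. The submitters' processing notes name mm10 as the build and, without saying what each did, Bismark 0.12.5, Bowtie2 2.1.0 and cutadapt 1.3. Not given in the sources used here were the way the samples were joined, duplicate removal and read filters. Duplicate reads would narrow intervals without adding information. The file lists 21908008 CpGs, and 133245671 counts fell on the autosomes.

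Strands were summed per CpG. Levels, exact Clopper-Pearson intervals (95%) and calls were computed with Python 3.11.15, numpy 2.4.6, pandas 2.3.3 and scipy 1.17.1, and figures were drawn with matplotlib 3.10.9. The calls were run on simulated independent counts at a few set levels as a check of the computation. That check does not cover reads that span several CpGs or levels close to the limits of the calls. Gene positions came from a RefSeq gene table and starts and sequences from a RefSeq promoter table, both GRCm38.p6. Of 38 members 22 had a tabulated start and sequence, and 16 were placed at the gene end with more CpGs. In 31396 of 31396 autosomal promoter sequences the CpG number equalled that listed at their coordinates. Exons and introns were not annotated. Windows lay on a fixed grid and belonged to a cluster by their center.

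The members and lists were chosen with earlier results of these data known. Named in full were the 2 lowest and 2 highest promoters of each cluster, the 2 lowest and 2 highest bodies, every member not called low, the listed neighbors, the extremes of the other lists, high windows and the longest runs. With no replicate error no test was run. Alternatives covered depth, strand, window, threshold, start and flank.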

Additional observations from a re-analysis of the deposited data

How the results depend on the processing

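Of 63 alternatives of 8 results 47 stayed near the main value. For counts of calls, near meant within a fixed ratio of the main count. For the median level and the differences it meant within limits set by the counting intervals. A reversal was defined only for the cluster minus flank differences, and 0 of those reversed. The number of low promoters, 34 of 38, ranged from 28 to 37 in the other alternatives. It was 22 of 37 measured when tabulated starts were replaced by the CpG-richer gene end, which for many is the same window, and the remaining members were placed at their other end. Low windows, 179 of 440, numbered 102 with a low threshold of 15% and 279 with 30%, and 113 of 241 with windows of 2 kb. With either strand alone 27 of 38 promoter levels stayed within their main interval, and 5 promoters were no longer low on the minus strand and 1 on the plus strand. With flanks taken from 20 to 50 kb, the cluster minus flank differences in percentage points were -41.3 for Hoxa, -40.8 for Hoxb, -31.5 for Hoxc and -55.0 for Hoxd. With flanks of 100 kb they were -31.4, -36.5, -36.7 and -26.3 in the same order. As means of CpG fractions they were -28.5 for Hoxa, -28.1 for Hoxc and -27.1 for Hoxd, and for Hoxb9 to Hoxb1 alone the Hoxb difference was -36.7. The causes were not tested beyond what each alternative's construction shows. Of these, the Hoxb9 to Hoxb1 stretch, the start by the shared direction of a cluster, with 34 low promoters, and windows of 10 kb were chosen after the data were seen. By that direction Hoxb2 would be unresolved at 17.2% and Hoxb6 low at 9.23%. Low bodies, 31 of 38, numbered 23 with 15% and 37 with 30%.

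No paired analysis was possible because the counts came as 1 table with no column per sample, and for the same reason leaving out a sample was not run. Depth limits windows with few CpGs most, such as Hoxd4 with 78 read counts.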
